A study of Mus musculus with 6 samples.

Results

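The 36 genes described here encode proteins that take up, activate and oxidise fatty acids, together with a pair of nuclear receptors that respond to fatty acids. They were chosen by name, and all 36 were among the 22310 genes of the deposited table. They were divided by step into 5 genes of uptake and activation, 4 of the carnitine shuttle, 20 of mitochondrial oxidation, 5 of peroxisomal oxidation and 2 receptors. Each gene was put in 1 step, and where its protein lies in these cells was not examined. The libraries were made from tumor cells of MMTV-PyMT mice, in which the mouse mammary tumor virus promoter drives the polyoma middle T oncogene in mammary epithelium, on an FVB/N background and aged about 12 to 18 weeks. The labels give the genotype as WT and name no treatment other than the sort. Dissociated cells were plated overnight in medium with serum, insulin and EGF and then sorted on CD90 within the Lin-CD24+ gate. Metastasis-initiating cells (MICs) carried the labels Lin-CD24+CD90+, the CD90- remainder made up the non-MICs, and Lin- excludes cells with the erythroid marker Ter119, the endothelial marker CD31 or the leukocyte marker CD45. There were 3 libraries of each population, numbered 1 to 3 in both. The study counts its 3 replicates as separate experiments or tumors. Whether libraries with the same number came from the same tumor, and whether a tumor pools several mice, is not given in the sources used here.

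Long-chain fatty acids enter cells in part through the scavenger receptor CD36 and are trapped as acyl-CoA by acyl-CoA synthetases. The outer-membrane enzyme CPT1 passes the acyl group to carnitine, CPT2 returns it to CoA inside mitochondria, and repeated rounds of dehydrogenation, hydration, a further dehydrogenation and thiolysis release acetyl-CoA, with electrons handed to the respiratory chain by electron transfer flavoprotein. Peroxisomes shorten very long and branched chains by a parallel route and export the products as carnitine esters, and the receptors PPARα and PPARδ switch on many genes of both routes when they bind fatty acids.

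Values are normalised read counts, which the authors scaled to the same total in every library (34999999 to 35000001), and 31467281 to 51759769 whole reads per library were recovered from them, replicate 3 being deepest in both populations. Thy1, which encodes CD90, had values of 1509, 301 and 755 in the MIC libraries 1, 2 and 3 against 16.9, 21.1 and 12.6 in the non-MIC libraries, and it was higher in every MIC than in every non-MIC library. Same-numbered libraries resembled each other: their departures from the population means correlated at 0.573 to 0.746 over genes, and those of differently numbered libraries at -0.33 on average. Departures cancel out within each population, so the second value largely follows from the first and is not separate evidence of pairing. The cells were keratin-rich in both populations, with 8 of 8 luminal epithelial markers and 7 of 7 basal and myoepithelial markers in the table. The summed basal markers ranged from 8350 to 314214 in MICs and from 6783 to 78376 in non-MICs, while no basal marker was at 0 in any library and all 7 were highest in replicate 1. Of these 7, 5 were higher in MICs in all 3 pairs, and with the block 4 were called in limma (Krt5, Acta2, Myh11 and Cnn1, with log2 fold changes of 2.23, 2.42, 2.58 and 2.23) and 5 in edgeR, which added Trp63. The summed luminal markers ranged from 231645 to 602637 in MICs and from 292499 to 714451 in non-MICs. All 8 had log2 fold changes below 0, and Epcam and Elf5 were lower in MICs in every pair. Elf5, a transcription factor of luminal progenitors, had a log2 fold change of -1.09 and was called by edgeR (adjusted p = 0.000449) and DESeq2 (adjusted p = 0.00253) with the block, but not by limma with it (adjusted p = 0.139). All 8 fibroblast markers were in the table, with sums of 673 to 2167 in MICs and 588 to 1157 in non-MICs, 4 of the 8 were higher in MICs in all 3 pairs, and Lum was at 0 in 1 library. With the block edgeR called 2 higher in MICs and 0 lower. They were Col1a2 (log2 fold change 1.74, adjusted p = 7.89e-12) and Dcn (1.57, adjusted p = 0.0152). Col1a1 and Col3a1 were lower in MICs in pairs 1 and 2 and higher in pair 3. Pdgfrb and Fap were lower in pair 1 only, with log2 fold changes of 0.63 and -0.30. DESeq2 with the block called Col1a2 (adjusted p = 2.42e-05), and limma with it called 0. The part of these markers in the results below was not tested, and in bulk RNA fewer cells of a type and less RNA per cell cannot be told apart.

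None of the 36 genes passed the test between MICs and non-MICs in the limma fit over all 22310 genes (adjusted p = 0.99999 for Crot, the member with the smallest p), with 0 members at an unadjusted p under 0.05. That fit called 0% of all genes, and 322 genes (1.44%) had an unadjusted p under 0.05. With the replicate number as a block, limma again called 0 members, against 0.13% of all genes, and 3 members (Crot, Ppard and Echs1, 8.33% of 36) had an unadjusted p under 0.05, against 11.2% of all genes. edgeR's quasi-likelihood test on the recovered reads with the block called 1 member, Crot, against 1.41% of all genes (1.04% in that direction), and DESeq2 with the block called 0, against 0.889% of the genes it gave an adjusted p. The median log2 fold change of the members was 0.058, and that of all genes was -0.045.

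By same-numbered pair, 7 members (19.4%) were higher in MICs in all 3 pairs, where 12.5% of all genes were. They were Acsl4, Hadhb, Decr1, Etfa, Etfb, Crot and Ehhadh. Another 7 members (19.4%) were lower in all 3 pairs, where 18.8% of all genes were, namely Acsl1, Cpt2, Acad10, Acox3, Hsd17b4, Ppara and Ppard. Among the genes with a mean value of at least 10, which include 35 of the 36 members, those background shares were 13.7% and 24.5%. Quantile scaling took Acsl4 off the first list and added Acads, Acadsb, Hadh and Echs1 (10 members, where 14.9% of all genes were higher). It took Cpt2 off the second (6 members, where 16.5% were lower). TMM scaling added Acadsb and Echs1 to the first (9 members, where 14.7% were higher). In the values as deposited, the remaining 22 members changed direction between pairs. The 3 pairs differed in how far the members moved: the members' median absolute log2 difference in pairs 1, 2 and 3 came to 0.33, 0.29 and 0.11, beside 0.48, 0.45 and 0.21 for all genes and 0.40, 0.37 and 0.14 for genes with a mean value of at least 10. In pair 1, 26 members (72.2%) were higher in the MIC library, against 45.2% of all genes, whereas 15 (41.7%, against 53.5%) were higher in pair 2 and 12 (33.3%, against 35.8%) in pair 3. The higher values of pair 1 were mostly in the mitochondrial steps, where 19 of 20 genes were higher in the MIC library, compared with 10 of 20 in pair 2 and 6 of 20 in pair 3.

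**Figure D1:**
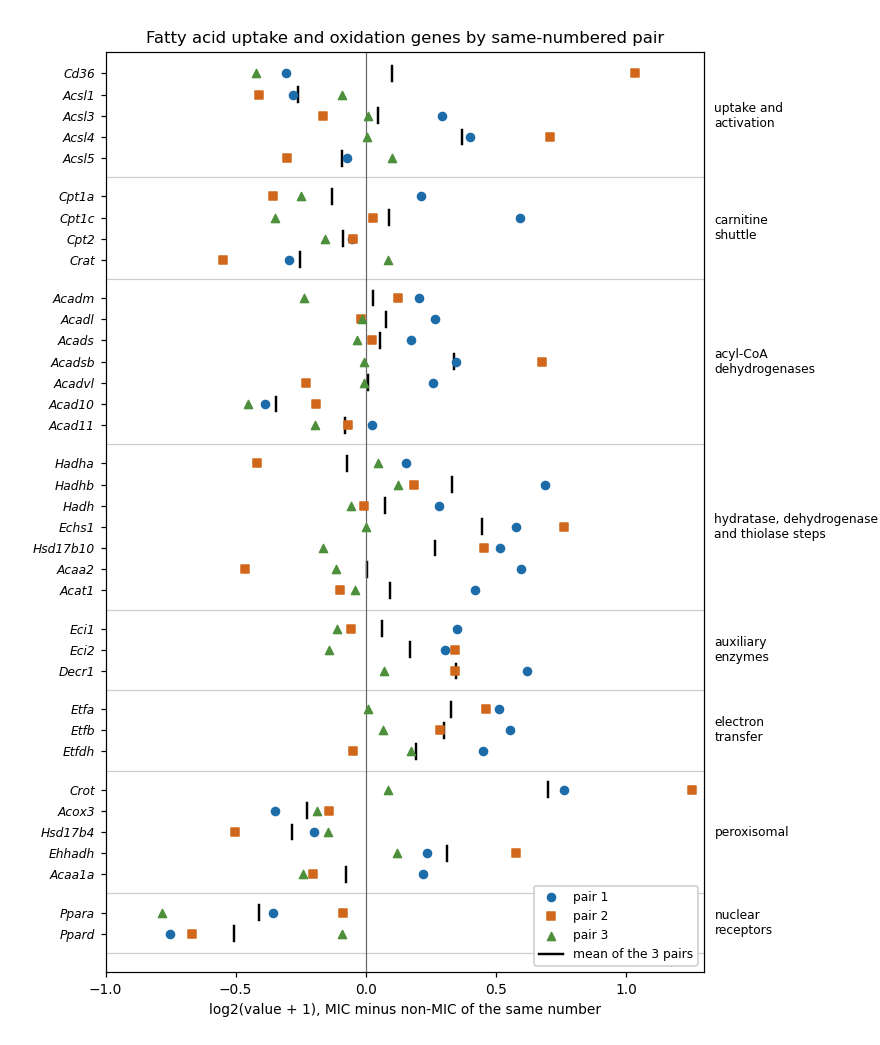
Difference in log2(value + 1) between the MIC and the non-MIC library of the same number (x axis) for each of the 36 genes, grouped by step, with a blue circle, an orange square and a green triangle for pairs 1, 2 and 3 and a black bar for their mean. Crot has the highest mean (0.70) and Ppard the lowest (-0.51), and the pair 3 points lie near 0 for most genes.

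Among the 5 genes of uptake and activation, 1 was higher (Acsl4) and 1 was lower (Acsl1) in MICs in all 3 pairs, and none passed the test. Cd36, the fatty acid translocase, had values of 3.23, 237 and 8.11 in the MIC libraries 1, 2 and 3 against 4.23, 115 and 11.2 in the non-MIC libraries. Both replicate 2 libraries were far above the other 4, and the populations overlapped. Its log2 fold change was 0.10 ± 1.70 (SE, n = 3), with pair differences of -0.31, 1.03 and -0.42. Here and below, ± is the SE of the limma fit without the block, which leaves the pairing out. A p with the block rests on that fit's own SE. Of the 8 macrophage markers, 7 were also highest in replicate 2. The exception was Csf1r, the receptor for macrophage colony-stimulating factor. Its MIC values were 112, 55.6 and 98.7 against non-MIC values of 92.1, 107 and 106, so replicate 2 was lowest in MICs only. Lyz2, a lysozyme of myeloid cells, showed MIC values of 31.3, 1635 and 142 against non-MIC values of 46.6, 834 and 137. The complement gene C1qa showed MIC values of 3.23, 62.3 and 1.35 against non-MIC values of 3.18, 43.3 and 2.10. For Lyz2 and C1qa the replicate 2 libraries stood above the rest, as they did for Cd36. All 8 macrophage markers listed were in the table, with sums of 237 to 2156 in MICs and 244 to 1345 in non-MICs, and Adgre1 and Fcgr1 were at 0 in at least 1 library. The pan-leukocyte gene Ptprc, which encodes CD45, showed MIC values of 0, 10.0 and 9.47 against non-MIC values of 0, 6.34 and 2.10. The 7 endothelial markers had sums of 87.2 to 208 in MICs and 65.6 to 214 in non-MICs, and 4 of them (Egfl7, Kdr, Tek and Emcn) had their highest mean log2 value in replicate 2, Cdh5 and Esam in replicate 3 and Pecam1 in replicate 1. Emcn was at 4.45 in MIC replicate 2 and at 0 in its partner. Of the adipocyte genes, Plin1 and Retn had between 0 and 2 reads in every library, and Adipoq, Cidec, Lep and Cfd were not in the table. Pparg, a nuclear receptor abundant in adipocytes, showed MIC values of 4.31, 30.03 and 17.6 against non-MIC values of 17.99, 61.3 and 20.3. Fabp4, an adipocyte fatty acid-binding protein, showed MIC values of 3.23, 8.90 and 2.03 against non-MIC values of 3.18, 5.28 and 1.40, a few reads in each library. Pparg and Fabp4 were both highest in replicate 2, as Cd36 was. The part of macrophage, leukocyte, endothelial and adipocyte RNA in the Cd36 values was not tested.

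Acsl1 and Acsl4 are long-chain acyl-CoA synthetases, the second with a preference for arachidonic acid. Acsl4 had values of 17118, 18399 and 20906 in the MIC libraries 1, 2 and 3 against 12983, 11265 and 20811 in the non-MIC libraries. MICs 1 and 2 exceeded their partners, while the replicate 3 libraries were the highest and nearly equal, so the populations overlapped. The fold change in log2 was 0.37 ± 0.26 (SE without the block, n = 3). In limma with the block the SE was 0.19, the unadjusted p 0.0751 and the adjusted p 0.479. Acsl1 showed MIC values of 487, 260.3 and 755 against non-MIC values of 592, 347 and 806. Each MIC library lay below its partner, but the spread between numbers was wider than any pair difference, and the log2 fold change was -0.26 ± 0.47 (SE, n = 3). Acsl3 and Acsl5 had log2 fold changes of 0.046 and -0.091, each with pairs in both directions.

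In the carnitine shuttle none of the 4 genes was higher in MICs in every pair, 1 (Cpt2) was lower in every pair, and none was called in any fit. The log2 fold changes ranged from -0.25 to 0.09, with a median of -0.11. Cpt1a encodes the form of carnitine palmitoyltransferase 1 whose activity limits the rate of long-chain oxidation in many tissues. Its values were 327, 1426 and 428 in the MIC libraries 1, 2 and 3 against 282, 1827 and 509 in the non-MIC libraries. Replicate 2 was highest in both populations, and MICs were above their partner in pair 1 and below it in pairs 2 and 3. In log2, the fold change was -0.13 ± 0.78 (SE, n = 3). Once blocked by number, the SE was 0.192 and the adjusted p 0.823. Cpt1c encodes a neuronal relative of CPT1 that lies in the endoplasmic reticulum and has little acyltransferase activity. It showed MIC values of 515, 2616 and 172 against non-MIC values of 342, 2566 and 219, again with both replicate 2 libraries highest. The population difference of 0.09 ± 1.17 (SE, n = 3) in log2 was small beside a range of 3.73 between replicate numbers.

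Cpt2, the inner-membrane partner of CPT1, varied least of the shuttle genes. It showed MIC values of 746, 1007 and 734 against non-MIC values of 774, 1043 and 819. MIC libraries were slightly below their partners in all 3 pairs, with log2 differences of -0.052, -0.051 and -0.16, while the populations overlapped. MICs differed from non-MICs by a log2 fold change of -0.087 ± 0.25 (SE, n = 3) with an adjusted p of 0.869 with the block. Crat, carnitine acetyltransferase, exchanges acetyl groups between CoA and carnitine, and its MIC values were 591, 634 and 1632 against non-MIC values of 725, 928 and 1537. Replicate 3 was highest in both populations, and the MIC library of pairs 1 and 2 lay below its partner, unlike that of pair 3. The difference in log2 was -0.25 ± 0.46 (SE, n = 3). The carrier Slc25a20, which moves acylcarnitine across the inner membrane and belongs to the list of further pathway genes, showed MIC values of 1137, 1706 and 509 against non-MIC values of 745, 1023 and 532. It was above its partner in pairs 1 and 2 only, and the adjusted p with the block was 0.44.

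**Figure D2:**
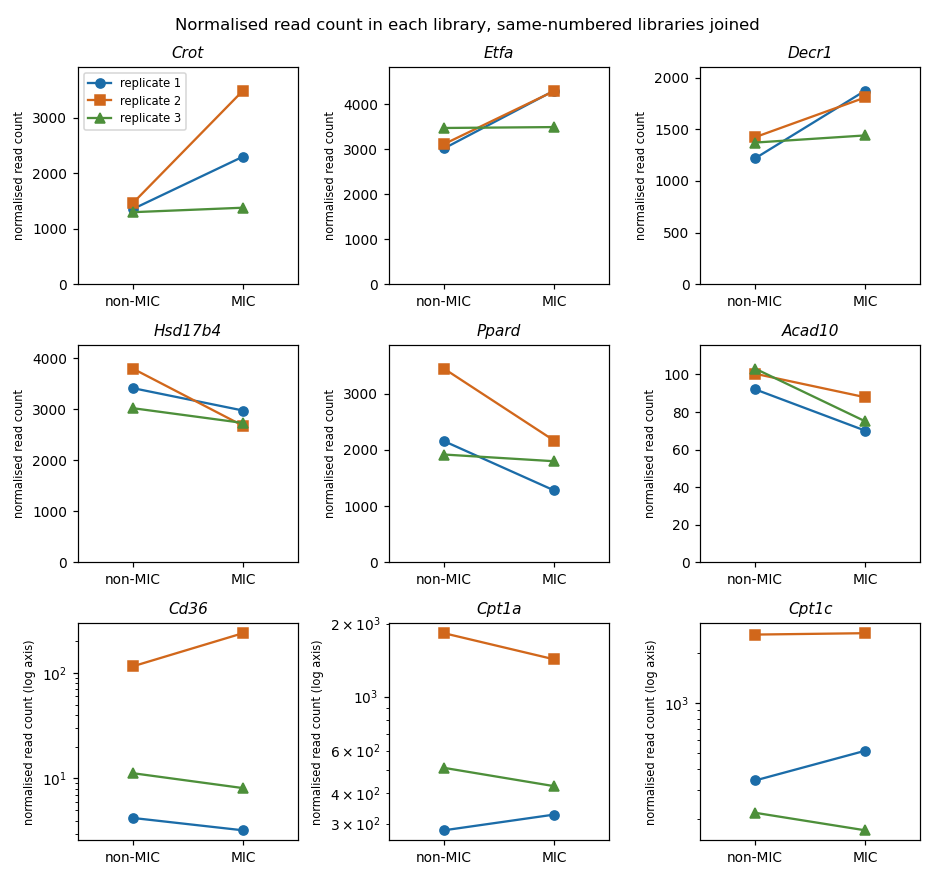
Normalised read count of 9 of the genes in each library (y axis, linear from 0 in the upper 6 panels and logarithmic for Cd36, Cpt1a and Cpt1c), with the non-MIC and MIC libraries of the same number joined by a line and replicates 1, 2 and 3 in blue, orange and green. In the upper panels the green replicate 3 lines are flatter than the others for Crot, Etfa, Decr1 and Ppard, and in the bottom row replicate 2 lies above the others in both populations.

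The 7 genes listed as mitochondrial acyl-CoA dehydrogenases had log2 fold changes from -0.34 to 0.34. Enzymes of this kind begin each mitochondrial round for chains of different length or structure. None was higher in every pair, and Acad10 was lower in every pair. Acadm, the medium-chain enzyme, showed MIC values of 1397, 1137 and 1315 against non-MIC values of 1214, 1044 and 1551, and the populations overlapped across their whole range. The log2 fold change was 0.029 ± 0.23 (SE, n = 3). Acadvl, the very-long-chain enzyme, showed MIC values of 3701, 3064 and 2995 against non-MIC values of 3093, 3589 and 3007. These 6 values lay within a narrow band, the replicate 3 pair was almost equal, and the log2 fold change was 0.0083 ± 0.19 (SE, n = 3). Acad10, a less studied member of the family, showed MIC values of 70.1, 87.9 and 75.1 against non-MIC values of 92.1, 100.4 and 103. The 3 MIC values all lay below the 3 non-MIC values. Its log2 fold change was -0.34 ± 0.39 (SE, n = 3), and the adjusted p with the block was 0.667.

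Groups that did not overlap were found for 4 members in all: Etfa and Decr1 (5.56% of members) with every MIC above every non-MIC library, against 2.69% of all genes, and Acad10 and Hsd17b4 (5.56%) with every MIC below, against 3.55%. Among genes with a mean value of at least 10 those shares were 2.32% and 3.99%. Acadsb, a short branched-chain dehydrogenase, was higher in the MIC library of pairs 1 and 2 by 0.35 and 0.68 in log2, and the pair 3 difference was -0.0083. Acadsb and Echs1 were named after their values were seen.

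The 7 genes of the hydratase, hydroxyacyl-CoA dehydrogenase and thiolase steps included both subunits of the mitochondrial trifunctional protein, which carries out the last reactions for long chains. Hadha, the α subunit, showed MIC values of 5084, 2869.6 and 5276 against non-MIC values of 4569, 3831 and 5106. MIC replicate 2 was the lowest library, and the others overlapped. The fold change in log2 was -0.072 ± 0.28 (SE, n = 3), and it was 0.021 by DESeq2 without the block. Hadhb, the β subunit, showed MIC values of 1886, 979.9 and 1464 against non-MIC values of 1169.5, 862 and 1344. Each MIC library was above its partner, most in pair 1, and the populations overlapped. In log2, the fold change was 0.33 ± 0.31 (SE, n = 3), with an adjusted p of 0.493 with the block. The log2 ratio of Hadhb to Hadha was higher in the MIC library of each pair, by 0.53, 0.60 and 0.076. MIC libraries 1, 2 and 3 gave -1.43, -1.55 and -1.85 against -1.97, -2.15 and -1.92 for their partners, with every MIC library above every non-MIC library. This ratio was chosen after the values were seen, and it carries no test. Other subunit ratios computed with it had pairs in both directions. In log2, Etfb to Etfa differed by 0.042, -0.18 and 0.059 in pairs 1, 2 and 3. Etfa to Etfdh differed by 0.059, 0.51 and -0.17.

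Hadha and Hadhb lie head to head on chromosome 5 and are transcribed away from each other from RefSeq start sites 273 bases apart. The 85 bases that no annotated exon of either gene covers (chr5:30155163-30155247, GRCm38.p6, RefSeq, plus strand, the direction of Hadhb) are shown because the paired subunits share them. Capitals mark GGGCGG, the core of a GC box, or CCAAT on either strand.
Hadhb and Hadha: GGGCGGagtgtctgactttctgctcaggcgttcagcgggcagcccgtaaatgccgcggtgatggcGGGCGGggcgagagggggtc
GGGCGG was found on either strand in the promoter window, 250 bases before to 50 after the RefSeq start, of 26 of the 31 members that had one (83.9%). Counted by gene it was in at least 1 window of 38.2% of all genes with one, and counted by window in 35.7% of all promoters. These background shares include genes whatever their level in these cells, while 35 of the 36 members had a mean value of at least 10. The share among genes of like level was not computed, so the gap cannot be read as particular to this pathway. GGGCGG stands at the start and near the end of the shared stretch. A match is a description of letters, not of a bound site.

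Echs1, the short-chain enoyl-CoA hydratase, showed MIC values of 2550.2, 2349 and 2870.5 against non-MIC values of 1708, 1384 and 2872. The MIC library was above its partner in pairs 1 and 2, and the pair 3 libraries were nearly identical, with values as high as any. MICs differed from non-MICs by a log2 fold change of 0.45 ± 0.29 (SE without the block, n = 3). In limma with the block the SE was 0.18, the unadjusted p 0.0286 and the adjusted p 0.423. Hsd17b10, Hadh, Acaa2 and Acat1 had log2 fold changes of 0.27, 0.072, 0.006 and 0.092, all with the MIC library higher in pair 1 and lower in pair 3.

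Of the 3 auxiliary enzymes for unsaturated chains, Decr1 was higher in MICs in every pair. Decr1, the mitochondrial 2,4-dienoyl-CoA reductase, removes double bonds that the ordinary cycle cannot handle. It had 1873, 1807 and 1440.3 in the MIC libraries 1, 2 and 3 against 1218, 1423 and 1371 in the non-MIC libraries. The lowest MIC library, replicate 3, was just above the highest non-MIC library, replicate 2. The difference in log2 was 0.35 ± 0.21 (SE without the block, n = 3). In limma with the block the SE was 0.17, the unadjusted p 0.0662 and the adjusted p 0.462. The isomerases Eci1 and Eci2 had log2 fold changes of 0.06 and 0.17, with pairs in both directions.

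The electron transfer genes were the step with the highest median log2 fold change among the mitochondrial steps, 0.30 over 3 genes, but none passed the test. Etfa and Etfb encode the subunits of electron transfer flavoprotein, which accepts electrons from the acyl-CoA dehydrogenases, and Etfdh encodes the oxidoreductase that passes them to ubiquinone. Etfa showed MIC values of 4307, 4298 and 3497 against non-MIC values of 3022, 3118 and 3477. MICs 1 and 2 were well above all others, while MIC replicate 3 exceeded non-MIC replicate 3, the highest non-MIC library, only by a ratio of 1.01. The log2 fold change was 0.33 ± 0.19 (SE, n = 3), with an adjusted p of 0.477 with the block. Etfb, which is given because it is the partner subunit, showed MIC values of 376, 489 and 211 against non-MIC values of 256, 401 and 201. Its MIC libraries were above their partners in all 3 pairs, by 0.55, 0.29 and 0.068 in log2, and Etfa differed by 0.51, 0.46 and 0.0083 in the same pairs. Unlike Etfa, Etfb varied between replicate numbers by 1.10 in log2 (adjusted p = 0.0189, limma F test). Etfdh was higher in MICs in pairs 1 and 3, with a log2 fold change of 0.19.

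The stretches before the RefSeq start sites of Etfa (chr9:55512244-55512493, minus strand) and Etfb (chr7:43443822-43444071, plus strand), both in GRCm38.p6, are shown because the subunits were higher in MICs in the same 3 pairs. Capitals mark CCAAT, the letters that the factor NF-Y is known to bind, or GGGCGG, on either strand, so that ATTGG is CCAAT on the other strand.
Etfa: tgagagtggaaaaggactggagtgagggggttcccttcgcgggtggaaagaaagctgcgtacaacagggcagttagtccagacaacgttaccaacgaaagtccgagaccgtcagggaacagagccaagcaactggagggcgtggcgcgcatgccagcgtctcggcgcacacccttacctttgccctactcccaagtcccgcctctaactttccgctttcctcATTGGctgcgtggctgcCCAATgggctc
Etfb: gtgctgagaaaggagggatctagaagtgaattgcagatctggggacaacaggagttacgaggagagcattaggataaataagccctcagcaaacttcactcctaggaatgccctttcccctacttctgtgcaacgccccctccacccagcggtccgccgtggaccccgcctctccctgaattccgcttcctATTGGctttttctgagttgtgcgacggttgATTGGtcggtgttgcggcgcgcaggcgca
Both stretches hold CCAAT as a pair of matches near their end. CCAAT was in the promoter windows of 17 of the 31 members with one (54.8%), in those of 41.1% of all genes with one and in 37.4% of all promoters. Here too the background includes genes whatever their level in these cells. A pair of AGGTCA half-sites with any single base between them, the form of the element that PPAR and RXR bind, the same pair with any base allowed at the fourth position of each half-site, and TNAAGGTCA, the form bound by estrogen-related receptors, which ends in the same half-site, were searched on both strands and were in the windows of 0 of the 31 members, against 0.0481%, 0.451% and 1.43% of all genes with one and 0.0396%, 0.381% and 1.28% of all promoters. No match says only that these letters are not in this window.

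Of the 5 peroxisomal genes, Crot and Ehhadh were higher and Acox3 and Hsd17b4 lower in MICs in all 3 pairs, and Crot alone was called, in 1 of the fits. Crot encodes carnitine octanoyltransferase, which converts chains shortened in peroxisomes to carnitine esters for export. Crot had values of 2300.0, 3489 and 1380.1 in the MIC libraries 1, 2 and 3 against 1357, 1463 and 1299.6 in the non-MIC libraries. The 3 non-MIC libraries were close to each other, MICs 1 and 2 were far above them, and MIC replicate 3 lay within the non-MIC range. Its log2 fold change was 0.70 ± 0.33 (SE, n = 3), the highest of the 36 genes. The unadjusted p was 0.0716 without the block and 0.00498 with it (limma adjusted p = 0.388). edgeR's quasi-likelihood test with the replicate number as a block gave an adjusted p of 0.0301, and DESeq2 with the block gave 0.0902. The edgeR call was lost without pair 1 (log2 fold change 0.65, adjusted p = 0.9996) or without pair 2 (0.48, adjusted p = 0.491), and it was kept without pair 3 (1.02, adjusted p = 0.00188). Crot overlaps the annotated genes Gm15610 and Gm37153 on the other strand and Gm27941 on its own, and the strand setting of the counting is not given in the sources used here.

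The chain-shortening enzymes went in both directions. Acox3, an acyl-CoA oxidase for branched chains, showed MIC values of 371, 715 and 464 against non-MIC values of 473, 788 and 529. Each MIC library was below its partner, and the populations overlapped, with replicate 2 highest in both. The fold change in log2 was -0.23 ± 0.34 (SE, n = 3). Hsd17b4, the D-bifunctional protein, which carries out the middle reactions of the peroxisomal cycle, showed MIC values of 2972, 2674 and 2728 against non-MIC values of 3410.1, 3792 and 3017. All 3 MIC values lay below all 3 non-MIC values, closest between MIC replicate 1 and non-MIC replicate 3. In log2, the fold change was -0.28 ± 0.19 (SE, n = 3), with an adjusted p of 0.513 with the block. Ehhadh, the L-bifunctional protein, was above its partner in each pair by 0.24, 0.58 and 0.12 in log2, and the thiolase Acaa1a had pairs in both directions. Of the 13 further peroxisomal genes listed, Acox2, Abcd3 and Pecr were among those lower in MICs in all 3 pairs and Scp2 was higher, and 0 were called in limma or edgeR with the block.

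Both receptors were lower in MICs in every pair. Ppard, which encodes PPARδ, had 1279, 2167 and 1798 in the MIC libraries 1, 2 and 3 against 2156, 3446 and 1917 in the non-MIC libraries. Replicate 2 was highest in both populations, and MIC replicate 2 lay above non-MIC replicates 1 and 3, so the populations overlapped. MICs differed from non-MICs by a log2 fold change of -0.51 ± 0.30 (SE without the block, n = 3), the lowest of the 36 genes. In limma with the block the SE was 0.18, the unadjusted p 0.0139 and the adjusted p 0.418. The unadjusted and adjusted p were 0.0101 and 0.208 in edgeR with the block. Ppara, which encodes PPARα, was near the floor of detection, with MIC values of 9.70, 8.90 and 4.06 against non-MIC values of 12.7, 9.51 and 7.71. These values are between 6 and 12 reads per library, at which counting error is large, and the log2 fold change was -0.41 ± 0.63 (SE, n = 3). Among the further receptors, coactivators and target genes, 6 of 14 were lower in MICs in all 3 pairs and 1 (Angptl4) was higher, and 0 were called with the block. Of all genes, 18.8% were lower and 12.5% higher in every pair, and of those with a mean value of at least 10, 24.5% and 13.7%. The coactivator gene Ppargc1a showed MIC values of 0, 21.1 and 15.6 against non-MIC values of 0, 10.6 and 18.9. Pdk4, a kinase that restrains pyruvate oxidation and a known PPAR target, showed MIC values of 171, 729.6 and 694 against non-MIC values of 73.0, 314 and 889. Its MIC libraries exceeded their partners in pairs 1 and 2 but not in pair 3, with an adjusted p of 0.423 with the block.

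The members also differed between replicate numbers. An F test of the number in the limma fit called 13 of 36 members (36.1%), against 28.4% of all genes and 37.1% of the genes with a mean value of at least 10, and edgeR called 17 (47.2%), against 31.6% and 43.3%. In 31 of the 36 members the range of the mean log2 value over the 3 numbers was wider than the absolute log2 fold change between populations (86.1%), as it was in 86.3% of all genes and 87.0% of those with a mean value of at least 10. The range spans 3 means, while the fold change sets 2 against each other. The exceptions were Acad10, Eci2, Decr1, Etfa and Hsd17b4. Cd36 had the widest range (5.14 in log2, adjusted p = 5.43e-05, limma F test), followed by Cpt1c (3.73, adjusted p = 1.11e-06) and Cpt1a (2.41, adjusted p = 2.03e-05), all highest in replicate 2. Acaa1a, Ehhadh, Acsl1, Crat, Acsl3, Etfb, Acox3, Etfdh, Acads and Hadhb made up the rest of the 13, with ranges from 0.69 to 1.66. These 13 had no single highest number: 5 were highest in replicate 2, 4 in replicate 1 and 4 in replicate 3.

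**Figure D3:**
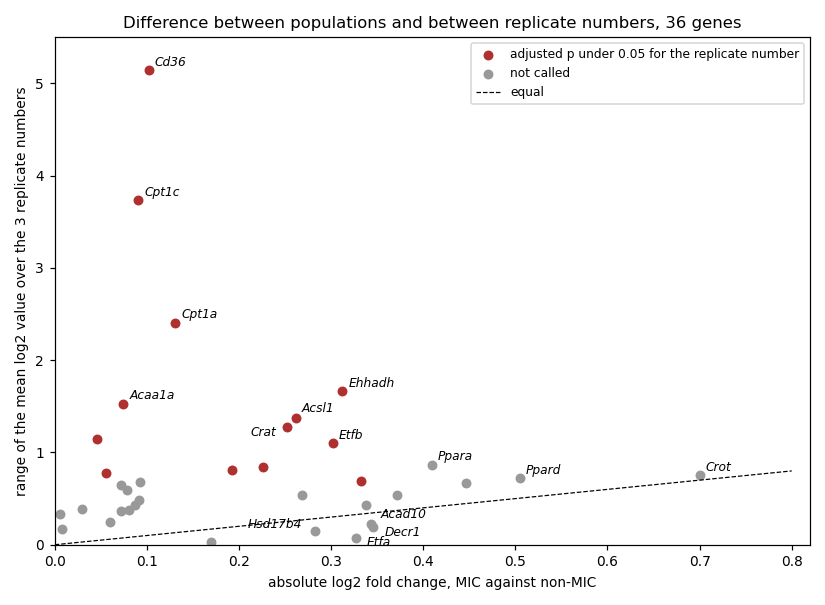
Range of the mean log2(value + 1) over the 3 replicate numbers (y axis) against the absolute log2 fold change between MICs and non-MICs (x axis) for the 36 genes, with members called for the replicate number in red and a dashed line where both are equal. Of the 36 points, 31 lie above the line, Cd36, Cpt1c and Cpt1a highest, and Crot lies farthest to the right.

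Because Cpt1a and Cpt1c were both highest in replicate 2, the stretches before their RefSeq starts are shown (Cpt1a, chr19:3323051-3323284, plus strand; Cpt1c, chr7:44974852-44975101, minus strand, both GRCm38.p6), with CCAAT and GGGCGG on either strand in capitals.
Cpt1a: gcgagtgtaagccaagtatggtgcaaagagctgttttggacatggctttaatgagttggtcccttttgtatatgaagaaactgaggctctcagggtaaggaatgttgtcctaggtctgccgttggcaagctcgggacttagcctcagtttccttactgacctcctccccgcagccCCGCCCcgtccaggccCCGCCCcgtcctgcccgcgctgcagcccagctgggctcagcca
Cpt1c: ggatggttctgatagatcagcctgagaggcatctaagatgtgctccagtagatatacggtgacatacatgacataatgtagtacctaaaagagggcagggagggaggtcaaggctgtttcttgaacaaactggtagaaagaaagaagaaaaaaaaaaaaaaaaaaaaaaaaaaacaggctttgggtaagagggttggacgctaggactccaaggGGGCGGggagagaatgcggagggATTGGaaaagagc
In Cpt1a the GC box letters CCGCCC occur as a pair on the other strand, and in Cpt1c GGGCGG and ATTGG stand near the end of the stretch.

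Per length of the longest principal transcript, and averaged over the 6 libraries, Acsl4 had the highest level of the 36 genes, with 3203 normalised reads per kilobase. Acadl, the long-chain dehydrogenase, followed with 2792, then Etfa with 2600.4, Hsd17b10 with 2238 and Acsl5 with 2149.6. The ranges over libraries of these 5 overlapped, so neighbours in this order did not differ beyond their spread. Among the acyl-CoA dehydrogenases Acadvl (1495) and Acads (1228) exceeded Acadm (624) per kilobase, and their library ranges did not overlap that of Acadm. Etfb, at 361, was below Etfa, and their library ranges did not overlap. Etfb overlaps the annotated genes Gm44816, Gm45233 and Mir7051 on its own strand, while Etfa overlaps none, and the effect of this on the counts was not tested. In the shuttle the means per kilobase were 384 for Cpt1c, 360 for Cpt2, 239 for Crat and 185 for Cpt1a, with library ranges that overlapped. Replicate 2 made the Cpt1c mean high, with 937 in MICs and 919 in non-MICs. In the other libraries Cpt1c lay between 61.5 and 185, below every Cpt2 library (310 to 440). The lowest levels per kilobase were those of Ehhadh (75.7), Acad10 (23.0), Cd36 (18.6) and Ppara (2.57).

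**Figure D4:**
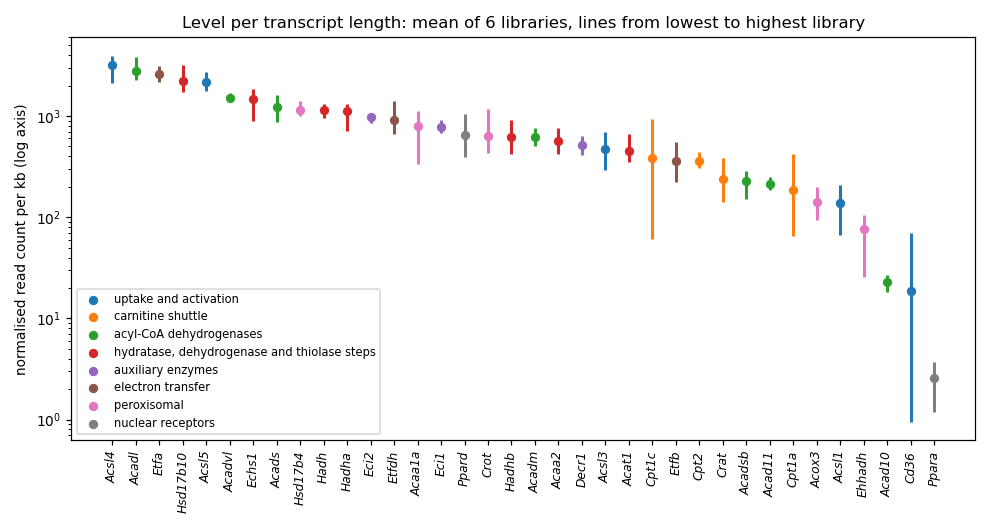
Normalised read count per kilobase of transcript (y axis, logarithmic) for the 36 genes in order of their mean over 6 libraries (points), with a line from the lowest to the highest library and colors for the steps. Acsl4 is highest at 3203 and Ppara lowest at 2.57, and the longest lines are those of Cd36, Cpt1c and Cpt1a.

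Of 64 further genes of the pathway, listed by role, 63 were in the table (Fabp1 was not). With the replicate block 0 of 63 were called in either direction by limma or edgeR, against 0.13% and 1.41% of all genes. The MIC library was the higher one of every pair for 7 of the 63 and the lower one for 15. Of all genes, 12.5% were higher and 18.8% lower in every pair. Among genes with a mean value of at least 10, those shares were 13.7% and 24.5%. In the list of fatty acid transport and binding, 2 of 14 were higher in every pair and 0 lower. Fabp5, an epidermal fatty acid-binding protein, showed MIC values of 4190.3, 2332 and 5377 against non-MIC values of 3149, 2003 and 5911. In both populations replicate 3 was highest and replicate 2 lowest, and the log2 fold change was 0.17. Of the 6 genes of carnitine supply and malonyl-CoA, 0 were higher and 2 (Slc22a5 and Acaca) were lower in every pair, and of 16 further mitochondrial genes 3 were higher (Pccb, Oxct1 and Acot9) and 3 lower (Acad9, Ivd and Gcdh).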

How the data were processed

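RNA of 6 libraries, 3 of MICs and 3 of non-MICs, was sequenced from stranded mRNA libraries (75 bases). The study's methods name Bowtie2 and samtools, and the submitters' processing notes name STAR and HTSeq; both give GRCm38/mm10, and versions are not given in the sources used here. The deposited signal is gene counts that the authors scaled to a common library total. Whole reads were recovered for 99.987% to 100% of values (within 0.01 of a read); intervals from reads would cover counting error only. All columns of the table were used (0 left out). Symbols and positions came from GENCODE vM21 (22161 of 22310 identifiers), promoter sequences from RefSeq (GRCm38.p6, 31 of 36 members). The members and lists were chosen with earlier results of these data known.

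limma 3.58.1 in R 4.3.3 was run on log2(value + 1), so that fold changes of low genes are understated, with a trend and without a block, over all 22310 genes (Benjamini-Hochberg, threshold 0.05). Same-numbered libraries correlated at 0.573 to 0.746 in all 3 pairs, a pairing taken from shared replicate numbers and the values, so the replicate block is given beside it. edgeR 4.0.16 (quasi-likelihood) and DESeq2 1.42.0 were run on recovered reads. In simulated data of 16582 genes, 200 of them changed, limma recovered 61 without and 200 with the block (6 false calls). edgeR recovered 34 without and 200 with the block (8 false calls). Recovery at fold changes as small as those of the members was not tested. Named genes with a value in every library were members called with the block by limma or edgeR, the 5 with the smallest p in each direction among those with 3 like pairs, and Cd36, Cpt1a, Cpt1c, Cpt2, Crat, Acadm, Acadvl, Hadha, Ppara and Ppard. Of the further pathway genes the rule named those called with the block and Slc25a20, Fabp4, Fabp5, Ppargc1a and Pdk4, beside 1 gene that is not reported here. CCAAT and GGGCGG were searched after the data were seen. Alternatives were pseudocounts of 0.1 and 10, a minimum mean value of 10, TMM and quantile scaling, other tests and libraries left out.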

Additional observations from a re-analysis of the deposited data

How the results depend on the processing

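The count of 0 members called held in limma with the replicate block, with other pseudocounts, the minimum mean value, TMM and quantile scaling, DESeq2 with and without the block, edgeR without it, and each library or pair left out of limma. The exception was edgeR with the replicate block, which called 1 member, Crot (log2 fold change 0.70, adjusted p = 0.0301); without pair 3 it was 1.02 (adjusted p = 0.00188), without pair 1 or 2 the call was lost, and these 3 fits were added after the data were seen. Over all genes the 0 calls became 29 with the block in limma, 315 with it in edgeR, 133 with it in DESeq2 and 1 in DESeq2 without it, and, in limma, 0 with each library left out and 11, 59 and 0 without pairs 1, 2 and 3 with the block. The members' median log2 fold change ran from -0.075 to 0.16 when a library or pair was left out. Of 189 values for the 19 named members under 10 other settings, 187 kept their direction and their side of the threshold, 1 gained the call (Crot) and 1 changed sign (Hadha, 0.021 in DESeq2 without the block); the cause was not tested. When a library or pair was left out, 10 named members kept their sign: Acad10 (-0.43 to -0.27), Acox3 (-0.49 to -0.0079), Acsl4 (0.19 to 0.63), Crot (0.38 to 1.05), Decr1 (0.21 to 0.48), Etfa (0.24 to 0.49), Hadhb (0.11 to 0.59), Hsd17b4 (-0.37 to -0.17), Ppara (-0.61 to -0.067) and Ppard (-0.71 to -0.25). The other 9 did not: with 1 library left out, Cd36 ran from -1.65 to 1.39, Acsl1 from -0.62 to 0.14, Cpt1a from -0.77 to 0.62, Cpt1c from -0.95 to 1.17, Cpt2 from -0.23 to 0.043, Crat from -0.72 to 0.050, Acadm from -0.10 to 0.18, Acadvl from -0.088 to 0.087 and Hadha from -0.23 to 0.21, and with 1 pair left out of the fit with the block, Cd36 ran from -0.36 to 0.36, Cpt1c from -0.16 to 0.31, Acadm from -0.057 to 0.16 (-0.017 without pair 2), Acadvl from -0.12 to 0.13 and Hadha from -0.19 to 0.10. TMM scaling added Acadsb and Echs1 to the genes higher in every pair (9 members, against 14.7% of all genes). Quantile scaling gave 10 (against 14.9%), with Acads, Acadsb, Hadh and Echs1 added and Acsl4 lost. It gave 6 lower (against 16.5%), without Cpt2. Members called for the replicate number were 12 to 17. Depth limits Ppara (6 to 12 reads per library) and Cd36 in replicates 1 and 3 (3 to 16 reads).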
